A study of Mus musculus with 20 samples.

Results

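The 31 hnRNP and SR splicing factor genes were followed through male meiosis on arrays of sorted testis cells. They were all genes with a single platform symbol that begins with Hnrnp or Srsf, or its older forms Hnrp and Sfrs, together with Rbmx and Rbmxl2, out of 18193 genes with a single symbol. The set held 19 hnRNP genes, 10 SR genes and the pair Rbmx and Rbmxl2. These genes had 96 probe sets, and the probe set of highest mean over the 20 arrays stood for each gene. All 31 passed the filter on low signals, which asked for a log2 signal of at least 5 on at least 2 arrays. Of these, 29 reached that level on all 20 arrays. The exceptions were Rbmx, which reached it on 7 arrays, all before pachynema, and Srsf12, which reached it on 2 arrays, both after it. Because the filter alone let these 2 genes in through the side where they were higher, counts are also given without them.

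hnRNP proteins coat nascent transcripts and, bound near splice sites, most often favour the skipping of an exon. SR proteins carry an RNA recognition motif and a domain rich in arginine and serine, bind exonic enhancers and recruit the spliceosome to nearby sites. The balance between these families shapes alternative splicing, and testis is known as a tissue with much alternative splicing and with germ cell versions of several splicing factors, of which the retrogene Rbmxl2 is the best studied.

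All cells came from testes of F1 males of C57BL/6 x DBA/2J, aged 10 to 16 weeks by the labels (the study's methods give a lower upper limit), with no other treatment or genotype in any group. Fractions were sorted on Hoechst 33342 fluorescence, a dye that separates cells by DNA content and chromatin state. Spermatogonia and round spermatids had 4 arrays each, pre-leptotene and leptotene-zygotene cells 3 each, mid-pachytene and diplotene cells 2 each, and the early-pachytene and late-pachytene fractions a single array, with RNA pooled over several sorts for each array. Values are GC-RMA signals of Affymetrix MOE430 version 2 arrays on the log2 scale, and levels are not compared between genes; for pairs of related genes only the change of their difference between groups of arrays is tested. A fraction is a bulk sample, so fewer cells that express a gene and less of its RNA per cell cannot be told apart.

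The labels were set against markers. Each marker sum is the log2 of the added linear signals, so the brightest markers weigh most. For 6 pachytene and diplotene markers it was 11.39 to 14.57 on the spermatogonia and pre-leptotene arrays and 13.75 to 14.88 in leptotene-zygotene. It was 16.11 to 16.70 from mid-pachytene to diplotene and 16.37 to 16.76 in round spermatids. The 6 leptotene-zygotene markers summed to 13.53 to 14.11 in their own fraction and 14.06 to 14.79 in mid-pachytene, so they did not mark it out. The sum of 7 spermatogonial markers lay between 14.43 and 15.09 in all 3 fractions before pachynema, so it did not separate them. Dmrt1 was the brightest of the 7 in spermatogonia, with a mean of 13.88. In diplotene cells the sum was 8.74 to 10.13. Macrophage markers stood out in spermatogonia, where the sum of 7 genes was 9.78 to 11.32. It was 5.30 to 9.85 in pre-leptotene cells and at most 6.36 from leptotene-zygotene on. All 7 had means under 5 in every other fraction, and Cd68 and Adgre1 in spermatogonia as well. The sum of 6 spermatid markers was 15.38 to 17.34 in spermatogonia, 14.56 to 15.42 in pre-leptotene and leptotene-zygotene, 15.66 to 15.69 in mid-pachytene, 13.69 in late-pachytene, 14.53 to 14.67 in diplotene and 16.20 to 16.77 in round spermatids. Of 7 Sertoli markers, Sox9, Rhox5 and Gata4 had means under 5 in every fraction, while Clu had means of 9.74 to 12.52 and Aard of 7.26 to 9.80. Wt1 had means under 5 in the early-pachytene, late-pachytene, diplotene and round spermatid fractions only, and Cldn11 in late-pachytene and round spermatids only. The summed signal of the 7 was 8.89 to 12.85. Of 4 Leydig markers, Hsd3b1 and Cyp11a1 were under 5 in every fraction and Cyp17a1 reached 7.51 in leptotene-zygotene. Star had means under 5 from early-pachytene on, but in none of the fractions before pachynema. The sum of the 4 was 5.32 to 8.40. The part of these cells in the results was not tested. Array project numbers, read from a supplementary dataset of the study, grouped the arrays into 6 projects. Deviations from the fraction mean were correlated within a project (median r = 0.44 over 21 pairs of arrays, all above 0), so the project was fitted as a block beside each limma comparison; related genes were also compared within projects.

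The highest fraction mean fell in spermatogonia, pre-leptotene or leptotene-zygotene cells for 21 of 31 genes, against 47% of all probe sets tested, and in mid-pachytene, late-pachytene or diplotene cells for 7, against 28.6%. The lowest mean fell in round spermatids for 22, against 28.9%. The range of the 8 fraction means ran from 0.28 for Hnrnpul1 to 4.42 for Hnrnpdl on the log2 scale, and it was under 1 for 3 genes.

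**Figure D1:**
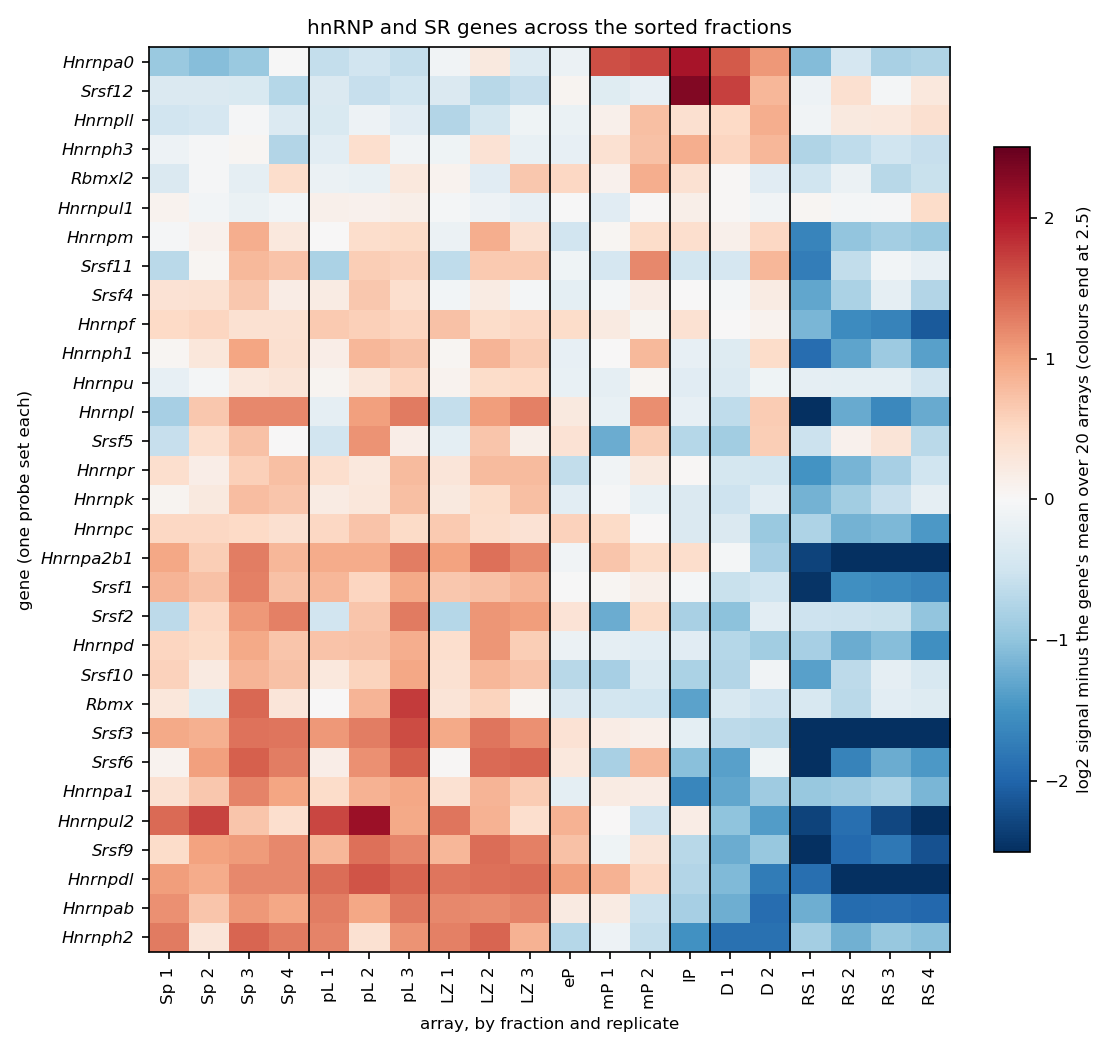
Log2 signal of each of the 31 genes (rows, ordered by their change into pachytene and diplotene) on each of the 20 arrays (columns, by fraction: Sp spermatogonia, pL pre-leptotene, LZ leptotene-zygotene, eP, mP and lP early-, mid- and late-pachytene, D diplotene, RS round spermatids), as the deviation from the gene's own mean. Red is above and blue below that mean. Most rows are mainly red before pachynema and blue in round spermatids, but they turn at different fractions. Several, such as Hnrnpdl and Hnrnpa2b1, are still red in mid-pachytene. Hnrnpa0, Hnrnpll and Hnrnph3 are red from mid-pachytene to diplotene.

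The main comparison set the mid-pachytene, late-pachytene and diplotene fractions against the 3 fractions before pachynema. By limma, with Benjamini-Hochberg adjustment over the 22396 probe sets tested and a threshold of 0.05, 22 of 31 genes changed, 4 up and 18 down. Without Rbmx and Srsf12 these counts were 3 and 17 of 29. The background was high, since 69.7% of all probe sets tested changed in this comparison, 30.4% up and 39.2% down, so the share of members called was near that of all probe sets. The median change was -0.73 over the members and -0.22 over all probe sets tested. Every later array lay above every earlier one for 3 genes and below for 13, against 16.5% and 21.5% of all probe sets. Without the 4 spermatogonia arrays, which hold the highest macrophage sums, the counts were again 4 and 18, and so they were without the late-pachytene array, although Srsf2 then missed the threshold (adjusted p of 0.051 by limma). In array project 2, which holds 1 late and 3 early arrays, and in project 6, which holds 2 late arrays and 1 early one, all 22 moved in the direction of their call.

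**Figure D2:**
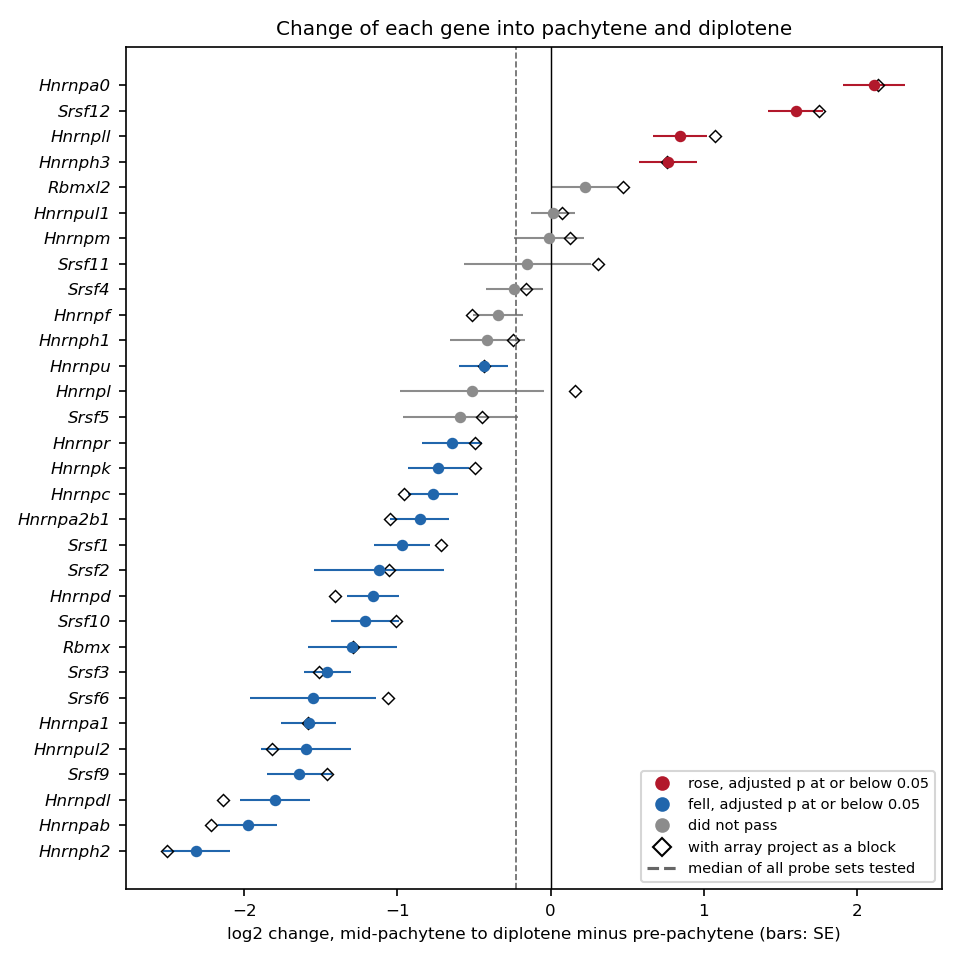
Log2 change of each gene from the fractions before pachynema to mid-pachytene, late-pachytene and diplotene, with its standard error (circles, bars) and the change fitted with array project as a block (diamonds). Hnrnpa0 lies farthest right at 2.11 and Hnrnph2 farthest left at -2.31, and the dashed line at -0.22 is the median of all probe sets tested.

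Hnrnpa0, a small member of the hnRNP A/B family that binds AU-rich RNA, showed the largest rise. Its gene lies at chr13:58125879-58128556 of GRCm38.p6. On the 10 arrays before pachynema its log2 signal was 8.26 to 9.57 (median 8.79), and the early-pachytene array read 9.17. The mid-pachytene arrays then read 10.93 and 10.99, the late-pachytene array 11.38 and the diplotene arrays 10.84 and 10.40, all above every earlier array. The 4 round spermatid arrays were back at 8.25, 8.90, 8.51 and 8.58. The rise was 2.11 ± 0.20 (SE) on the log2 scale, or 4.33-fold, with an adjusted p of 1.3e-07 by limma. Within project 2 it was 2.60 and within project 6 it was 1.12. This gene had 1 probe set, so no second one could be set beside it.

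Hnrnpll, known for driving the skipping of CD45 exons in activated lymphocytes, also rose. The arrays before pachynema read 11.27 to 11.97 (median 11.64), and the later arrays read 12.14 and 12.75 in mid-pachytene, 12.40 in late-pachytene and 12.50 and 12.91 in diplotene cells. The groups did not overlap, and the rise was 0.85 ± 0.18 (adjusted p of 4.6e-04 by limma). Its other probe set rose by 2.27, from 9.30 to 10.52 on the earlier arrays to 11.66 to 12.82 on the later ones, again with no overlap.

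Hnrnph3, a relative of hnRNP H and F, which bind runs of guanines, rose by 0.77 ± 0.19 (adjusted p of 0.0018 by limma). Its 10 earlier arrays lay at 10.79 to 11.95 (median 11.43) and its 5 later ones at 11.90 to 12.43 (median 12.26), so the groups overlapped. In round spermatids it was at 10.78 to 11.02. Srsf12, a relative of Srsf10 described as countering SR proteins, read 3.11 to 3.47 on all earlier arrays, 3.53 and 3.62 in mid-pachytene, 6.14 in late-pachytene and 5.53 and 4.65 in diplotene cells. It reached a log2 signal of 5 only on the late-pachytene and the first diplotene array. The rise of 1.60 became 0.47 (adjusted p of 4.9e-04 by limma) when values under 5 were raised to 5. No weight is put on that p, since every earlier array was then set to 5 and the rise rested on these 2 arrays.

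Hnrnph2 showed the largest fall. This X-linked gene, at chrX:134601179-134607060, encodes a near copy of hnRNP H1. The 10 earlier arrays read 9.88 to 11.03 (median 10.83), and the later arrays read 9.44 and 8.98 in mid-pachytene, 8.07 in late-pachytene and 7.71 on both diplotene arrays. The early-pachytene array, at 8.85, was below every earlier array. It came from array project 5, whose earlier arrays, spermatogonia replicate 2 and pre-leptotene replicate 2, read 9.88 and 9.96. The change was -2.31 ± 0.22 (adjusted p of 1.3e-07 by limma). In round spermatids the 4 arrays read 8.37 to 8.72, all above the diplotene arrays.

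Hnrnpab, at chr11:51600100-51606881, encodes an abundant RNA binding protein of the A/B family. Its arrays before pachynema lay between 13.62 and 14.24 (median 14.08). The later ones stepped down from 13.14 and 12.40 in mid-pachytene to 12.08 in late-pachytene and 11.70 and 11.03 in diplotene cells, a change of -1.98 ± 0.19 (adjusted p of 1.7e-07 by limma). Hnrnpdl, a relative of the AU-rich element binding protein Hnrnpd, held at 14.42 to 15.07 before pachynema and at 14.36 and 14.02 in mid-pachytene. It then read 12.76 in late-pachytene and 12.40 and 11.75 in diplotene cells, which gave -1.80 ± 0.23 (adjusted p of 3.3e-06 by limma). For both genes every later array was below every earlier one.

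Of the other hnRNP genes, Hnrnpul2, a relative of the scaffold attachment factor hnRNP U, changed by -1.59 and Hnrnpa1, the classical repressor of exon inclusion, by -1.58. Hnrnpa1 read 10.61 to 11.46 on the earlier arrays and 10.42 and 10.41 in mid-pachytene, then 8.60 in late-pachytene and 8.94 and 9.34 in diplotene cells. Its level was thus lowest in the single late-pachytene array. Hnrnpd fell by 1.16. Smaller falls passed for Hnrnpa2b1, which sorts RNAs for transport, at -0.86, Hnrnpc, which binds uridine tracts, at -0.77, Hnrnpk, which binds cytosine runs, at -0.73, Hnrnpr at -0.64 and Hnrnpu at -0.44. The call of Hnrnpu was lost without mid-pachytene replicate 1 (adjusted p of 0.061 by limma) or diplotene replicate 1 (0.057). Over the 19 hnRNP genes 3 rose and 11 fell, with a median of -0.64. Hnrnpf, Hnrnph1, Hnrnpl, Hnrnpm and Hnrnpul1 did not pass; with array project as a block Hnrnpf did, at an adjusted p of 0.024 by limma.

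Of the 10 SR genes, Srsf12 rose and 6 fell, with a median of -1.05. Srsf9, a close relative of Srsf1, changed most among those that fell. Its earlier arrays lay at 12.58 to 13.51 (median 13.26), and the later arrays read 12.02 and 12.44 in mid-pachytene, 11.43 in late-pachytene and 10.87 and 11.17 in diplotene cells. The change was -1.64 ± 0.21 (adjusted p of 3.8e-06 by limma). Srsf3, the smallest SR protein, which also takes part in RNA export, read 12.84 to 13.58 on the earlier arrays, then 12.13 and 12.07, 11.70, and 11.29 and 11.26. It changed by -1.46 ± 0.16 (adjusted p of 4.4e-07 by limma). In both genes no later array reached the lowest earlier array.

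The remaining SR genes that fell were Srsf6 at -1.55, Srsf10, a repressor of splicing that is switched by phosphorylation, at -1.21, Srsf2 (SC35) at -1.12 and Srsf1 (ASF/SF2) at -0.97. The arrays of Srsf6 and Srsf2 overlapped between the groups. Srsf6 read 10.60 and 12.23 on the mid-pachytene arrays and as low as 11.44 before pachynema; Srsf2 read 10.63 and 12.34 in mid-pachytene and as low as 11.14 earlier. The low readings of both groups came from array projects 2 and 4. In every one of the 6 fractions that hold arrays of projects 2 or 4 and of others, the arrays of those 2 projects were the lower ones for Hnrnph1, Hnrnpl, Hnrnpll, Hnrnpm, Srsf6, Srsf9 and Srsf11, or 7 of 31 genes, against 6.28% of all probe sets tested; this split was chosen after the values were seen. Projects 2 and 4 hold 3 of the 5 later arrays and 3 of the 10 earlier ones. With array project as a block, Srsf6 changed by -1.06 (adjusted p of 9.7e-05 by limma) and Srsf2 by -1.06 (0.0072). The call of Srsf2 was lost without pre-leptotene replicate 3, mid-pachytene replicate 1 or diplotene replicate 1, with adjusted p of 0.051, 0.099 and 0.071 by limma. Srsf4, Srsf5 and Srsf11 did not pass.

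**Figure D3:**
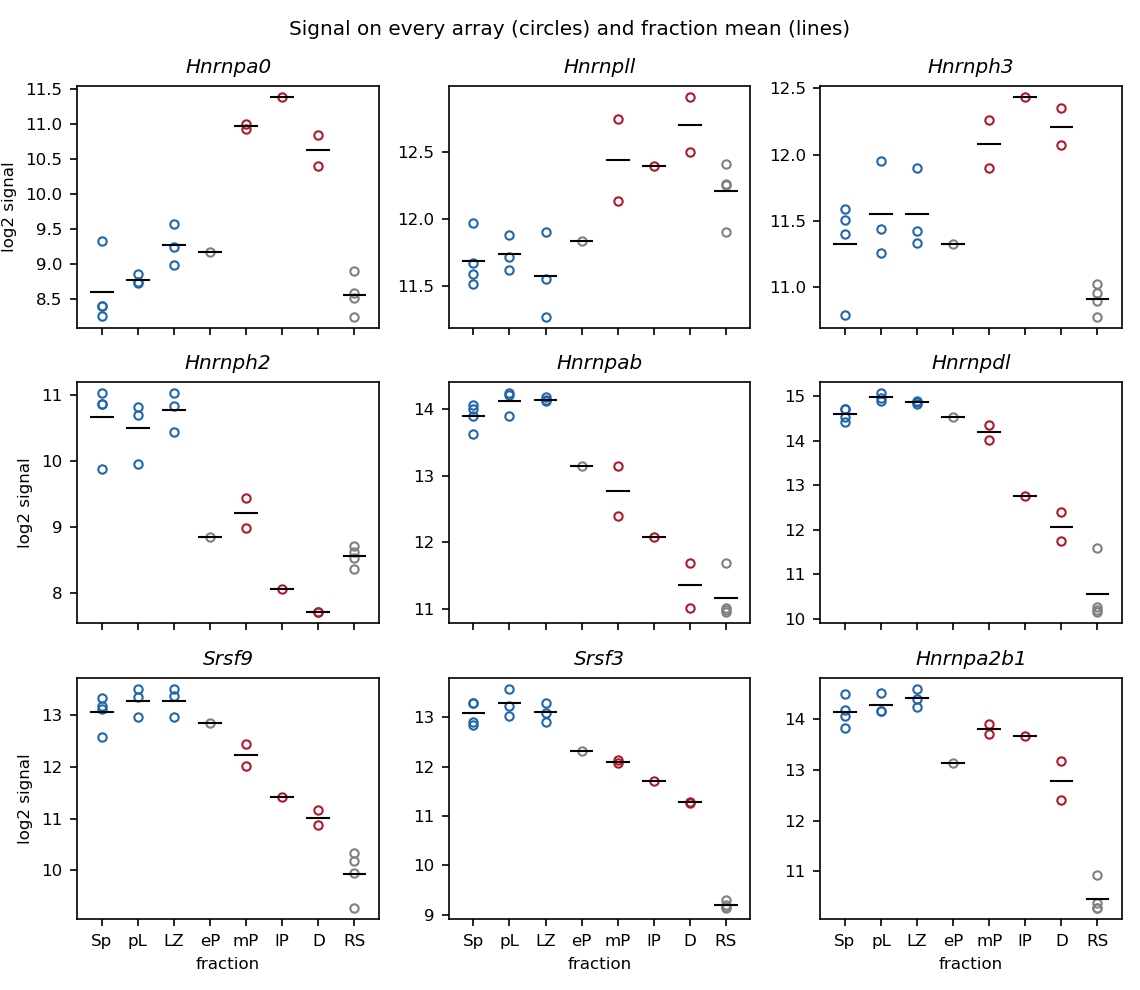
Log2 signal (circles, 1 per array; lines, fraction means) of 9 genes in the 8 fractions, with fractions before pachynema in blue, mid-pachytene to diplotene in red and early-pachytene and round spermatids in grey. Hnrnpa0, Hnrnpll and Hnrnph3 are higher on the red arrays and the other 6 lower. The probe sets shown for Hnrnpa2b1 and Srsf3 lose most of their signal in round spermatids.

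Promoter sequence is shown for the gene that rose most and for both genes that fell most. The windows are the 250 bases upstream of the annotated start, from RefSeq on GRCm38.p6, which held a promoter for 29 of the 31 genes. They are at chr13:58128557-58128806 on the minus strand for Hnrnpa0, chrX:134600929-134601178 on the plus strand for Hnrnph2 and chr11:51606882-51607131 on the minus strand for Hnrnpab. Each is written 5′ to 3′ along the gene, and capitals mark every match, on either strand, to CCAAT (the NF-Y box), GGGCGG (the GC box of SP factors) or ACNGTT (the core bound by MYB proteins).
Hnrnpa0: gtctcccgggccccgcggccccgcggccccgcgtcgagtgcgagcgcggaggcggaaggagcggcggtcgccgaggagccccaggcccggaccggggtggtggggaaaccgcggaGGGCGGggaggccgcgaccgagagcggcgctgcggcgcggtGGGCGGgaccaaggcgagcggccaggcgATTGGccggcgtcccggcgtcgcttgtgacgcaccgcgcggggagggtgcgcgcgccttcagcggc
Hnrnph2: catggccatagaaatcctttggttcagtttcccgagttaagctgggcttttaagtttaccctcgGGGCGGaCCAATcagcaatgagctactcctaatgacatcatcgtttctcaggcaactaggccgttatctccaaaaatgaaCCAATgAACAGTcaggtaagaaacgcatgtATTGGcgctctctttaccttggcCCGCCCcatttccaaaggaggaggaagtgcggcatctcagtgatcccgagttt
Hnrnpab: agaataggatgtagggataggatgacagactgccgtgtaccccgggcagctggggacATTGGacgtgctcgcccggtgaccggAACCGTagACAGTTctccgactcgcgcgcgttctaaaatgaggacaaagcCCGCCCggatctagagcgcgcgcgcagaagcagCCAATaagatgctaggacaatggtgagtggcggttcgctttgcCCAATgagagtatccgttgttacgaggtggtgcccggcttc

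The window of Hnrnpa0 was 81.2% G and C, that of Hnrnph2 48.4% and that of Hnrnpab 58.4%. Hnrnph2 and Hnrnpab each held 3 CCAAT matches and Hnrnpa0 held 1, and none of the matches overlapped. Of the 29 genes, 6 had several annotated starts, and a gene counted if the window of any start held a match. CCAAT was found in 58.6% of the 29 genes against 37.5% of all 27025 genes with a promoter. GGGCGG was found in 79.3% against 35.4% and ACNGTT in 41.4% against 24.9%. The 27025 genes were not filtered by signal or by presence on the array. TATAAA was found in 3 of the 29 genes, Hnrnpm, Srsf2 and Srsf3, or 10.3% against 14.3% of all genes. TGACGTCA, the full cAMP response element, was in none of the 29 genes and in 1.8% of all genes. These shares describe letters in a window and were not tested.

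Before pachynema no change passed. From spermatogonia to pre-leptotene and from pre-leptotene to leptotene-zygotene 0 of 31 genes changed by limma, and none had an unadjusted p under 0.05 in either step. In the first of these steps the same test called 0.487% of all probe sets, 0.0714% up and 0.415% down, and in the second 2.02%, 1.86% up and 0.165% down. At these shares under 1 member would be called, so the counts say little about the members. The median change of the members was 0.11 and -0.03. All pre-leptotene arrays lay above all spermatogonia arrays for 2 genes and below for 0, against 4.09% and 4.69% of all probe sets. From pre-leptotene to leptotene-zygotene 1 gene lay wholly above and 1 wholly below, against 10.7% and 7.56%.

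From leptotene-zygotene to mid-pachytene 8 of 31 genes changed, 2 up and 6 down, while 28.9% of all probe sets changed, 13.7% up and 15.3% down. Hnrnpa0 rose by 1.70 ± 0.32 and Hnrnpll by 0.86 ± 0.28. Those that fell were Hnrnph2 at -1.56, Hnrnpab at -1.37, Srsf10 at -1.24, Srsf9 at -1.05, Srsf3 at -0.99 and Hnrnpd at -0.96, with adjusted p between 0.0045 and 0.030 by limma. Both mid-pachytene arrays lay above all 3 leptotene-zygotene arrays for 4 genes and below them for 16, all 8 called genes among these, against 24.7% and 32.6% of all probe sets. In array project 6, the only one with both fractions, all 8 kept their direction. The fit with array project as a block called 9087 of all 22396 probe sets, 3751 up and 5336 down. In it 13 members changed, Hnrnpul2, Srsf6, Srsf2, Hnrnpdl and Hnrnpa2b1 being the additional ones, all lower in mid-pachytene. The count depended on single arrays: 1 gene passed without mid-pachytene replicate 2, Hnrnpa0, 5 without mid-pachytene replicate 1 and 4 without leptotene-zygotene replicate 2.

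The single early-pachytene array allows no test. It came from array project 5, which holds no leptotene-zygotene or mid-pachytene array, so fraction and project cannot be told apart here. The early-pachytene array lay below all 3 leptotene-zygotene arrays for 18 of 31 genes, against 44.5% of all probe sets tested. It lay above all of them for 2, against 26.6%. For Hnrnph2, Srsf10, Hnrnpa2b1 and Hnrnpr it was lower than the leptotene-zygotene mean by more than 1. Hnrnpa2b1 read 13.13 there, against 14.24, 14.61 and 14.41 in leptotene-zygotene and 13.91 and 13.71 in mid-pachytene cells. Srsf10 read 10.57, against 11.65 to 12.09 before and 10.42 and 10.91 after. For all 4 genes the mid-pachytene mean was above the early-pachytene array, by 0.10 for Srsf10 and by 0.70 for Hnrnpr. Hnrnpa0 read 9.17 on the early-pachytene array, against a leptotene-zygotene mean of 9.26.

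From mid-pachytene to diplotene 9 genes changed, 1 up and 8 down, while 19.3% of all probe sets changed, 6.56% up and 12.7% down. Both diplotene arrays lay above both mid-pachytene arrays for 1 gene and below them for 15, against 27.7% and 29.6%. Hnrnpdl changed most, by -2.12 ± 0.40 (adjusted p of 0.0018 by limma), followed by Hnrnph2 at -1.5, Hnrnpab at -1.40, Hnrnpa1 at -1.28, Srsf9 at -1.21, Hnrnpa2b1 at -1.02, Hnrnpc at -0.90 and Srsf3 at -0.83. Srsf12 was the gene that rose, by 1.52, and with values under 5 raised to 5 it no longer passed. In projects 4 and 6, which each hold an array of both fractions, all 9 genes kept their direction, but 2 genes passed without mid-pachytene replicate 1, 3 without diplotene replicate 2, and 0 by limma when these fractions were fitted alone, where 7 had an unadjusted p under 0.05. The fit of these fractions alone called 0 of all 22396 probe sets, so its 0 says nothing about the members. With array project as a block 11 members changed, while 6816 of all probe sets did, 2744 up and 4072 down.

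Round spermatids had less of the signal again. From diplotene on, 12 of 31 genes fell and 0 rose, while 25.1% of all probe sets changed, 14.2% down and 10.9% up, and the median change was -0.84 against -0.10. At an unadjusted p under 0.05 there were 15 genes, the 12 with Hnrnpl and Hnrnpul2 downward and Hnrnph2 upward. Without Rbmx and Srsf12 the count was 11 of 29, and it was 8 of 31 without either diplotene array. All round spermatid arrays lay below both diplotene arrays for 16 genes and above them for 1, against 23% and 18.7%. In projects 4 and 6 all 12 genes kept their direction. By its brightest probe set Hnrnpa2b1 showed the largest step. Its diplotene arrays read 13.19 and 12.40 and its round spermatid arrays 10.92, 10.29, 10.27 and 10.37. That was a change of -2.33 ± 0.29 or 5.03-fold (adjusted p of 6.0e-05 by limma). The other Hnrnpa2b1 probe sets changed by -0.78, -0.71 and -0.50 and did not pass (adjusted p of 0.11, 0.13 and 0.60 by limma). Srsf3 read 11.29 and 11.26, then 9.29, 9.15, 9.20 and 9.13, a change of -2.08 ± 0.24 (adjusted p of 3.4e-05 by limma). Hnrnpa0 gave back its rise with -2.06 ± 0.31 (adjusted p of 2.2e-04 by limma). For these 3 genes all round spermatid arrays were below both diplotene arrays.

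The others that fell in this step were Hnrnpf at -1.67, Hnrnpdl at -1.52, Hnrnph1 at -1.44, Hnrnpm at -1.42, Hnrnph3 at -1.30, Srsf1 at -1.27, Srsf12 at -1.14, Srsf9 at -1.09 and Srsf4 at -0.84. Srsf9 and Srsf4 missed the threshold without either diplotene array, Hnrnpdl and Srsf12 without replicate 1 and Hnrnph1 and Hnrnpm without replicate 2. Hnrnpf had 2 other probe sets that did not fall (0.17 and 0.23), and with its probe sets averaged it missed the threshold (-0.79, adjusted p of 0.051 by limma). Srsf4 also missed it without round spermatid replicate 1, 2 or 4. Hnrnpf, Hnrnph1, Hnrnpm and Srsf4 are genes whose change into pachytene and diplotene had not passed. Hnrnpf, which binds runs of guanines like hnRNP H, read 13.36 to 13.73 on the mid-pachytene to diplotene arrays and 12.20, 11.78, 11.69 and 11.25 in round spermatids. Hnrnpm, a splicing repressor bound to GU-rich RNA, read 10.28 and 10.66 in diplotene cells and 8.49 to 9.30 in round spermatids. With array project as a block 17 genes fell and 1 rose; the additional ones that fell were Hnrnpl, Hnrnpul2, Srsf6, Srsf11 and Hnrnpll, and the gene that rose was Hnrnph2, by 0.85 ± 0.34 without the block (adjusted p of 0.078 by limma) and with an adjusted p of 0.012 with it. Of all 22396 probe sets the block fit called 3835 down and 2867 up. Over the last 3 steps together, without the block, Srsf3 and Srsf9 fell in each, Hnrnpa2b1, Hnrnpab, Hnrnpdl and Hnrnph2 in 2, and 13 genes in none.

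The X-linked members were Rbmx and Hnrnph2. Rbmx encodes hnRNP G, and Rbmxl2, its autosomal retrogene on chromosome 7, encodes the germ cell protein hnRNP G-T. The Rbmx probe set read 4.5 to 6.56 (median 5.12) before pachynema and 4.34 and 4.30, 3.47, and 4.39 and 4.29 on the later arrays, with no overlap. The change of -1.30 ± 0.29 (adjusted p of 8.7e-04 by limma) was -0.42 (0.15) with values under 5 raised to 5, since Rbmx reached a log2 signal of 5 on 7 arrays only. In round spermatids this probe set read 4.13 to 4.54. Another Rbmx probe set, 1426863_at, rose by 2.06 from diplotene to round spermatids (adjusted p of 0.039 by limma). That one read 1.92 to 3.95 from mid-pachytene to diplotene and 3.86 to 5.92 in round spermatids, so it too lay near or under 5. Rbmxl2 read 8.28 to 9.31 (median 8.55) before pachynema, 9.15 in early-pachytene, 8.75 and 9.54 in mid-pachytene, 9.01 in late-pachytene, 8.67 and 8.35 in diplotene cells and 7.95 to 8.49 in round spermatids. Its change into pachytene and diplotene was 0.22 ± 0.21 and did not pass (adjusted p of 0.37 by limma).

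Related genes were compared within each array, as the log2 difference between their signals, over the 10 arrays before pachynema and the 5 from mid-pachytene to diplotene. Of 10 pairs measured, 7 changed their difference by an exact two-sided permutation test over the 3003 ways to choose the 5 arrays, with adjustment over the 10 pairs. Without the pairs that hold Rbmx or Srsf12 these were 5 of 8. The test takes no account of array project, but all 7 kept their direction within projects 2 and 6. Hnrnph1 gained on Hnrnph2 by 1.91 (exact p = 6.7e-04, adjusted p = 0.0033): the difference was 2.04 to 3.71 on the earlier arrays and 3.42 to 5.60 on the later ones. Hnrnpl lost 1.32 to Hnrnpll (exact p = 0.0057, adjusted p = 0.011), and Srsf4 gained 1.22 on Srsf6 (exact p = 0.0050, adjusted p = 0.011). Srsf1 gained 0.60 on Srsf9 (exact p = 0.013, adjusted p = 0.022), a call lost without diplotene replicate 1 (exact test, adjusted p = 0.065). Each of these 4 pairs holds genes that read lower on arrays of projects 2 and 4, namely Hnrnph1, Hnrnpl, Hnrnpll, Srsf6 and Srsf9. How much array project added to the sizes of these differences was not tested. In each of these 4 pairs the earlier and later arrays overlapped.

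Rbmxl2 gained 1.38 on Rbmx (exact p = 0.0050, adjusted p = 0.011), by 2.06 within project 2 and 1.66 within project 6, but with values under 5 raised to 5 the gain was 0.62 with an adjusted p of 0.10. For Srsf10 and Srsf12 the difference changed by -2.53, and by -1.5 with values under 5 raised to 5. No weight is put on its p, since Srsf12 was under 5 on every earlier array. Hnrnpu lost 0.39 to Hnrnpul1 (exact p = 0.027, adjusted p = 0.039), a call lost under quantile normalization, with probe sets averaged, and without spermatogonia replicate 3 or 4, pre-leptotene replicate 3, leptotene-zygotene replicate 2 or 3 or diplotene replicate 1, with adjusted p of 0.061 to 0.10 in these 6 cases by exact permutation. The difference of Hnrnpf and Hnrnph1 changed by -0.03 (exact p = 0.92). Those of Hnrnpa1 and Hnrnpa2b1 and of Hnrnpd and Hnrnpdl changed by -0.54 and 0.54, with an adjusted p of 0.078 by exact permutation for each.

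**Figure D4:**
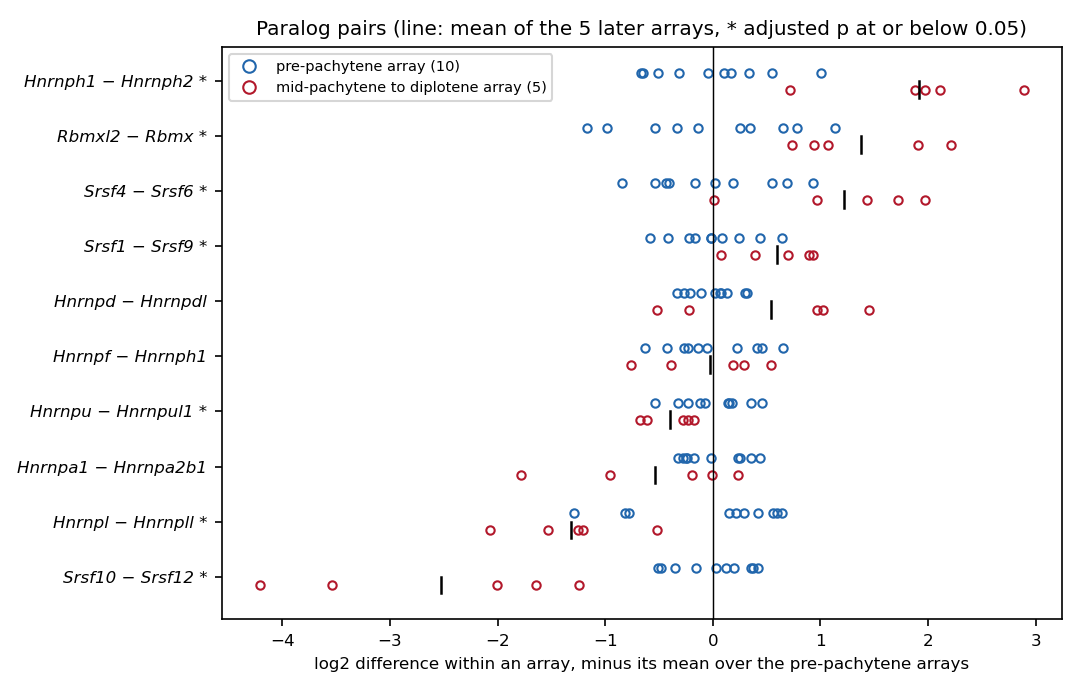
Log2 difference between the signals of related genes within each array, minus its mean over the 10 arrays before pachynema (blue; 5 arrays from mid-pachytene to diplotene in red, black line their mean). Hnrnph1 minus Hnrnph2 moves farthest right, by 1.91, and Srsf10 minus Srsf12 farthest left, by -2.53; stars mark the 7 pairs that passed.

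Probe sets of 1 gene often disagreed, which bears on every value above. Of 20 genes with more than 1 probe set tested, 5 had probe sets that rose and others that fell into pachytene and diplotene: Hnrnpa2b1, Hnrnpc, Hnrnpd, Hnrnpu and Srsf3. In all 5 the brightest probe set was the one that fell. For Hnrnpa2b1 the probe set that stands for the gene, 1420365_a_at, changed by -0.86, while 1433829_a_at rose by 0.95 and 1433830_at by 1.44. The last read 7.92 to 10.29 (median 9.01) before pachynema, 9.76 to 11.11 (median 10.46) from mid-pachytene to diplotene and 10.12 to 10.45 in round spermatids, where the brightest probe set had lost most of its signal. For Srsf3, 1416150_a_at fell by 1.46 and 1416151_at rose by 2.26, from 4.75 to 6.96 on the earlier arrays to 6.64 to 8.90 on the later ones.

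Hnrnpu, the scaffold attachment factor, changed by -0.44 on 1423051_at and by 0.86 on 1423050_s_at, which read 11.64 to 12.61 before pachynema and 12.63 to 13.43 after, with no overlap. Hnrnpc and Hnrnpd had a dimmer probe set that rose, by 0.76 and 2.02, and that of Hnrnpd read at most 3.81 before pachynema. Srsf11, which associates with the spliceosome, had 4 probe sets tested: the brightest changed by -0.15 and did not pass, while 1427269_at rose by 2.90 ± 0.26, from 6.81 to 8.86 on the earlier arrays to 9.78 to 11.16 on the later ones. That was a larger rise than any gene showed by its brightest probe set. All probe sets tested fell for Hnrnpa1, Rbmx and Srsf2, and all rose for Hnrnpll. Over the 85 probe sets tested of the 31 genes, 12 rose and 38 fell. With the probe sets of a gene averaged, 6 genes rose and 13 fell, and Hnrnpa2b1, Hnrnpd and Srsf3 had changes of 0.42, 0.43 and 0.24, opposite to those of their brightest probe sets.

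**Figure D5:**
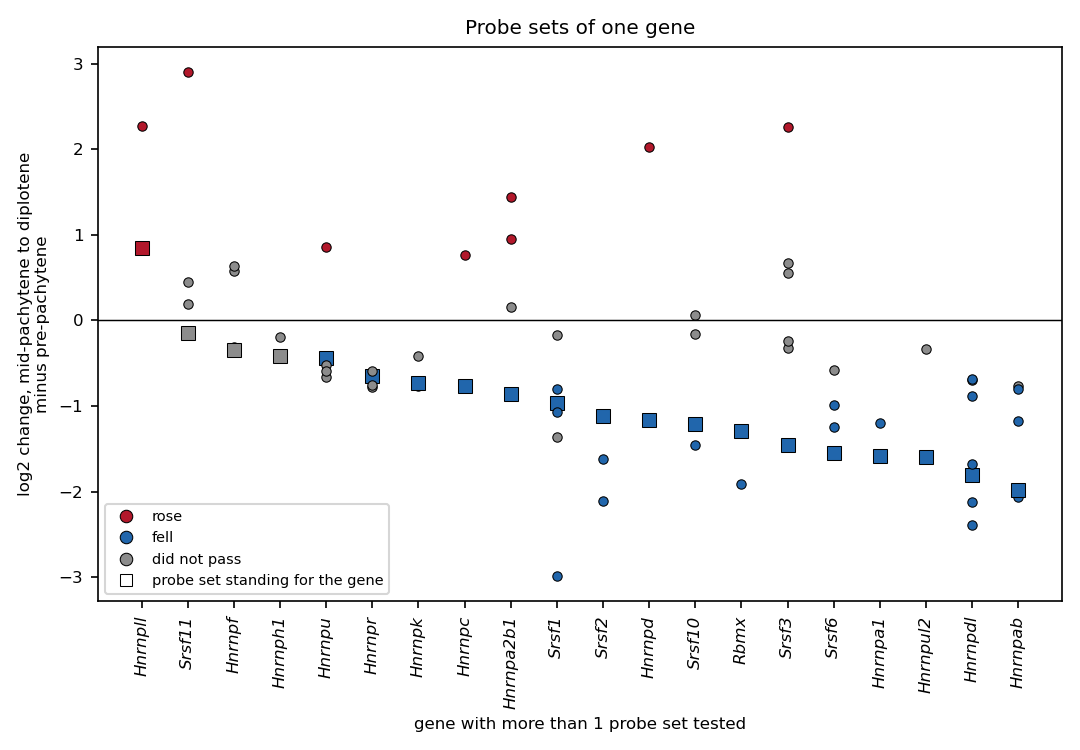
Log2 change into pachytene and diplotene of every probe set tested for the 20 genes with more than 1 (squares, the probe set of highest mean; circles, the others; red rose, blue fell, grey did not pass). Circles above 0 over blue squares mark Hnrnpa2b1, Hnrnpc, Hnrnpd, Hnrnpu and Srsf3, and the highest circle is the Srsf11 probe set at 2.90.

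The step to round spermatids divided probe sets less: 40 of the 85 fell and 1 rose, with a median of -1.09, and no gene had probe sets called both ways. The 1 that rose was 1426863_at of Rbmx. Of the probe sets that stand for a gene, those of Hnrnpa1, Hnrnpab and Hnrnpf have an _x_at name and those of Hnrnpll and Srsf2 an _s_at name, which the array's maker gives to probe sets that can also bind transcripts of other genes. The values of these 5 genes are uncertain to that extent, and how much related transcripts added was not tested. Hnrnpa3 and Srsf7 were not analysed here.

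Other splicing genes were counted on the same terms, from lists chosen with earlier results of these data known; over all probe sets tested 30.4% rose and 39.2% fell into pachytene and diplotene. Of 29 genes of the core snRNPs and U2 factors tested, 0 rose and 16 fell into pachytene and diplotene, with a median of -0.67; the U2 snRNP subunits Sf3b3 and Sf3a1 changed by -1.83 and -1.65. Of 15 hnRNP-like genes without an Hnrnp symbol, 5 rose and 6 fell, with a median of -0.31. Pcbp3, a poly(C)-binding relative of Hnrnpk, rose by 3.23, Raly, a relative of Hnrnpc, changed by -2.0, Fubp1, which binds single-stranded nucleic acid, by -1.65, and Cirbp, the cold-inducible RNA binding protein, by -1.52. Chosen after their values were seen, the polypyrimidine tract binding protein Ptbp1 changed by -1.33 and its relative Ptbp2, known from neurons and testis, rose by 0.93. Of 16 SR-related and TRA2 genes 4 rose and 5 fell, with Rsrc1 at 3.81, Sugp2 at 2.45 and Scaf11 at -3.29. Of 6 SR protein kinases tested Srpk1 rose by 1.12 and Clk2 changed by -1.99. Of 20 genes listed as tissue regulators of splicing 4 rose and 12 fell, with a median of -1.45. That list also holds the germ cell RNA binding genes Boll and Dazl, which are not taken as splicing regulators here. Boll rose by 3.34. Mbnl3, of the muscleblind family, Elavl2, of the Hu family, and Esrp1, a regulator of epithelial exons, changed by -5.24, -4.35 and -4.02. With array project as a block the rises and falls were 1 and 18 for the core genes and 4 and 7 for the hnRNP-like genes. They were 4 and 6 for the SR-related genes, 1 and 1 for the kinases and 5 and 12 for the tissue regulators. The calls lost were Snrnp200 and Ewsr1. Of all 22396 probe sets that fit called 7077 up and 9152 down.

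In round spermatids compared with diplotene cells, where 10.9% of all probe sets rose and 14.2% fell, 0 of the 29 core genes rose and 6 fell, with U2af1, which reads the 3′ splice site, at -2.12. Of the 15 hnRNP-like genes 0 rose and 5 fell, with Ewsr1 at -2.24, and of the 16 SR-related and TRA2 genes 1 rose and 7 fell, with Srek1 at -1.90. Of the 6 kinases Clk3 rose by 0.65 and none fell, and of the 20 tissue regulators 1 rose and 5 fell. With array project as a block these counts were 1 and 7, 0 and 7, 1 and 6, 1 and 1, and 2 and 8. U2af2, Scaf4 and Scaf11 lost their calls. Of all 22396 probe sets 2867 rose and 3835 fell in that fit.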

How the data were processed

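The authors deposited linear GC-RMA signal intensity for 45037 probe sets, made in GeneSpring GX 7.3.1 (GC-RMA version: not given in the sources used here). On the log2 scale, a model with 1 mean per fraction was fitted to the 20 arrays with limma 3.58.1 under R 4.3.3 (eBayes, 12 residual plus 3.69 prior degrees of freedom), two-sided, with Benjamini-Hochberg adjustment over the 22396 probe sets with log2 signal of at least 5 on at least 2 arrays. The single early- and late-pachytene arrays entered that fit and were assumed to vary like the others. Median linear signals of the arrays ranged from 11.1 to 12.7; precision is limited by the number of arrays. The labels call arrays of a fraction biological replicates, pooled over sorts.

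Fractions and replicate numbers came from the sample labels, and the array project from the columns of a supplementary dataset whose signals equalled each array; a supplementary table numbers projects differently for some arrays. Gene names followed the platform annotation and were matched to GRCm38.p6 by gene number. Of 45037 probe sets, 34945 had 1 symbol, 932 several and 9160 none. Exact permutation tests used Python 3.11.15 with numpy 2.4.6 and pandas 2.3.3, and plots matplotlib 3.10.9. Alternatives were median centring, quantile normalization, a floor at log2 5, no filter, the compared fractions alone, replicate or project blocks, averaged probe sets and single arrays left out. The model was tested on simulated data. Members, pairs and lists were chosen with earlier results of these data known. Genes were named as follows: Rbmx, Rbmxl2, X-linked members, pairs that passed, the called members of largest change (10 each way for pachytene and diplotene against earlier fractions, 6 for mid-pachytene, 4 for other steps, the rest in a clause) and at most 4 per list; probe sets named outside this rule were chosen after their values were seen.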

Additional observations from a re-analysis of the deposited data

Results flagged for a closer look

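In the fractions with 4 arrays, spermatogonia and round spermatids, 11 of 62 sets of readings of these genes had an array that lay apart, judged by its gap to the nearest other array as a share of the whole range. Chance gives about 1 in 20. Round spermatid replicate 1, from array project 4, was apart for 5 genes. It was higher for Hnrnpa2b1 (10.92, others 10.27 to 10.37, share 0.853), Hnrnpab (11.70, others 10.95 to 11.03, share 0.905) and Hnrnpdl (11.60, others 10.15 to 10.26, share 0.923). It was lower for Hnrnpm (8.49, others 9.17 to 9.30, share 0.838) and Srsf1 (10.28, others 11.08 to 11.21, share 0.859). Without it 11 genes fell from diplotene to round spermatids in place of 12. Round spermatid replicate 4 was lower for Hnrnpu (13.49, others at 13.73, share 0.972) and Srsf2 (10.87, others 11.32 to 11.34, share 0.947).

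Spermatogonia replicate 4 was higher for Hnrnpa0 (9.32, others 8.26 to 8.39, share 0.873) and lower for Hnrnpc (13.08, others 13.18 to 13.19, share 0.938) and Srsf12 (3.11, others 3.44 to 3.47, share 0.94). Spermatogonia replicate 2 was lower for Hnrnph2 (9.88, others 10.87 to 11.02, share 0.863).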

How the results depend on the processing

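The count of members changed into pachytene and diplotene was 22 and stayed between 19 and 23 under every alternative (median centring, quantile normalization, a floor at log2 5, no filter, the fractions fitted alone, replicate or project block, averaged probe sets, the spermatogonia or late-pachytene arrays left out), and between 20 and 23 without single arrays; 15 of the 22 genes passed under each of these. The last 2 omissions were chosen after seeing the data. Both steps before pachynema gave 0 throughout. From leptotene-zygotene to mid-pachytene 8 became 4 with the fractions fitted alone, 13 with the project block and 1 to 9 without single arrays. From mid-pachytene to diplotene 9 became 0 with the fractions fitted alone and 2 to 9 without single arrays. From diplotene to round spermatids 12 became 19 with probe sets averaged and 8 to 14 without single arrays. Of all 22396 probe sets the fit of the compared fractions alone called 4404 into mid-pachytene and 0 into diplotene. The 0 members into diplotene in that fit is therefore no result about the members. The project block called 9087 of all probe sets into mid-pachytene. Passing pairs numbered 7, and 5 to 9 without single arrays.

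With probe sets averaged, 6 changes reversed: into pachytene and diplotene Hnrnpa2b1 (0.42), Hnrnpd (0.43) and Srsf3 (0.24); into mid-pachytene Hnrnpd (0.44) and Srsf3 (0.13); into diplotene Hnrnpa2b1 (0.12). Probe sets of these genes disagreed, as described.

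Replicate numbers were not taken to pair the arrays, since some arrays of 1 number were negatively correlated (deviations from fraction means, -0.17 to 0.70, median 0.34 over 37 pairs; different numbers, median -0.11 over 96 pairs). With the replicate block, leaving out the 2 arrays without a number, 0, 0, 10, 11, 18 and 23 members changed in the 5 steps and the overall comparison, and 6 pairs passed. In the same order that fit called 927, 996, 8929, 6225, 7344 and 16328 of all 22396 probe sets. Quantile normalization moved the median change of all probe sets from -0.22 to -0.11 in the overall comparison. For arrays the distance of signals from background limits Rbmx and Srsf12.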
